A study of Homo sapiens and Mus musculus with 12 samples.

Results

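The genes described here are 5 immune checkpoint genes: Ctla4, Pdcd1 (which encodes PD-1), Lag3, Havcr2 (which encodes TIM-3) and Cd274 (which encodes PD-L1). They were chosen by symbol, 5 of the 22021 genes in the mouse count table and 4 of the 18304 in the human one, and PDCD1 was not analysed here in NK92MI cells. RNA-seq compared natural killer (NK) cells lacking the H3K9 methyltransferase EHMT2 (G9a), or treated with its inhibitor, with their controls, in 4 groups of 3 libraries. The mouse NK cells came from the spleens of Ehmt2 flox/flox mice without Cre (WT) and of Ehmt2 flox/flox; Ncr1 iCre mice (KO), for which the study's methods give an age of 8 to 12 weeks. Ncr1 encodes NKp46, so the Cre acts in NK cells and other Ncr1-expressing innate lymphoid cells. The human libraries came from NK92MI, an NK lymphoma line that makes its own IL-2, treated with BIX-01294 or with DMSO, its solvent. A dose of 0.25 uM for 5 days is stated for NK92MI cells, though not for these libraries in particular. Libraries of a group are not said to come from separate mice or cultures, so p-values measure the spread between these libraries.

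Checkpoint receptors are surface proteins that lower the activity of T and NK cells when they meet their ligands. CTLA-4 competes with the costimulatory receptor CD28 for CD80 and CD86 on antigen-presenting cells. PD-1 binds PD-L1 and PD-L2 and recruits the phosphatase SHP-2, LAG-3 binds MHC class II, and TIM-3 binds galectin-9, CEACAM1 and HMGB1. These receptors are usually induced by activation or long stimulation, and PD-L1 by interferon gamma, and several of them are also made by myeloid cells or regulatory T cells.

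In NK92MI cells CTLA4 rose 2.35-fold with BIX-01294, and CD28 and ICOS, its neighbours, and CD80 and CD86, the ligands of CTLA-4, rose as well. CD274 was 1.498-fold higher and passed only a looser rule, HAVCR2 was 1.17-fold higher, and LAG3 differed by less than the spread between libraries. In mouse NK cells none of the 5 passed the stricter rule, and neither did any other gene tested (0%). Havcr2 was at 0.617 of its WT level in KO cells and passed the looser rule, and markers of macrophages and B cells were also lower in the KO libraries. The stricter rule was an adjusted p under 0.01 with an absolute log2 fold change over 0.5, and the looser rule an adjusted p under 0.05 with the same fold. Adjusted p-values are from edgeR's quasi-likelihood test with Benjamini-Hochberg adjustment over all genes tested, 13189 in mouse and 12727 in human. All 5 mouse and all 4 human genes passed the filter on low counts.

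Libraries held 25891680 to 37438868 counts in mouse and 16579469 to 17165446 in human. Levels are CPM, counts scaled to a library total of 1000000 after TMM normalization. The targeted gene Ehmt2 was at 274.7 to 285.5 CPM in WT and 136.9 to 170.7 CPM in KO (log2 fold change -0.91, SE 0.10, adjusted p = 0.0162 with edgeR), counted over the whole gene. EHMT2 was at 54.3 to 61.6 CPM with DMSO and 35.8 to 40.4 CPM with BIX-01294 (log2 fold change -0.58, SE 0.08, adjusted p = 0.000101 with edgeR). Markers of NK cells summed to 5694 to 9587 CPM in WT and 10780 to 12550 CPM in KO, and 12 of 12 were higher in KO. The looser rule called 6 of them higher, and 2.82% of all genes tested. In NK92MI cells the NK cell markers summed to 4983 to 5447 CPM with DMSO and 5600 to 7058 CPM with BIX-01294. Of these, 8 of 12 were higher, 3 of them called by the looser rule, and 4 lower, none of them called. That rule called 7.57% of all human genes tested higher and 7.34% lower.

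**Figure D1:**
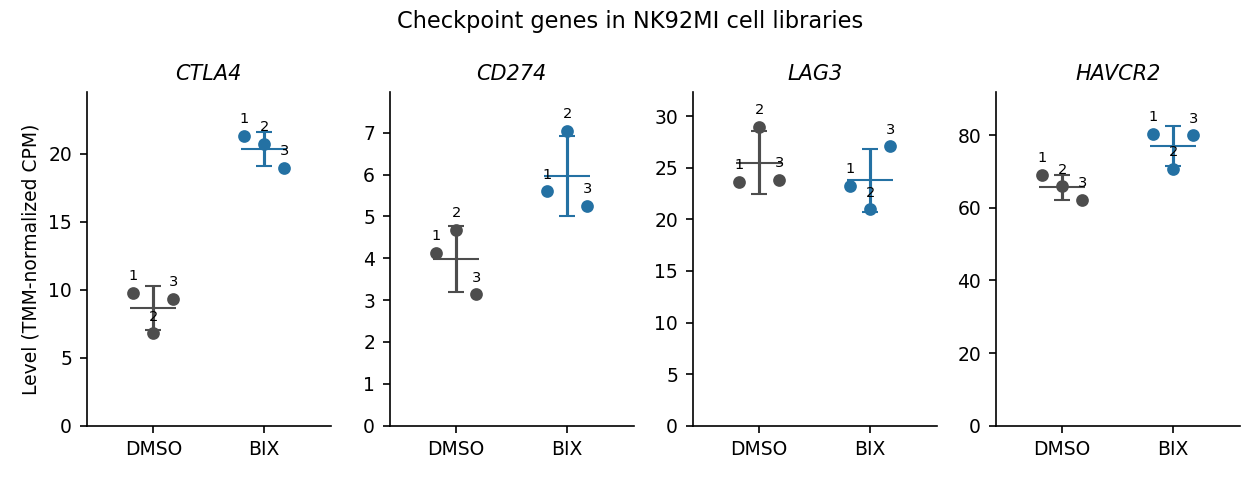
Level in CPM (vertical axis of each panel, from 0) of CTLA4, LAG3, HAVCR2 and CD274 in each NK92MI library, by group (horizontal axis), with the group mean and SD drawn as a bar and numbers naming the columns of the count table. CTLA4 lay between 6.78 and 9.78 CPM in the 3 DMSO libraries and between 19.0 and 21.3 CPM in the 3 BIX-01294 libraries, while the groups of LAG3 overlap.

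CTLA4 lies on human chromosome 2 (GRCh38 chr2:203853888-203873965, plus strand), between CD28 and ICOS, which encode costimulatory receptors of the same family. The 3 genes are shown by the 250 bases before their RefSeq starts (GRCh38.p14, plus strand), at chr2:203867521-203867770 for CTLA4, chr2:203706389-203706638 for CD28 and chr2:203936513-203936762 for ICOS, because all 3 were called in the same comparison. The RefSeq start of CTLA4 lies within the GENCODE span given above, which begins with a longer transcript. Capitals mark GGAAA on either strand (TTTCC when read on the plus strand), the core letters bound by NFAT, a factor activated by calcium signalling.

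CTLA4: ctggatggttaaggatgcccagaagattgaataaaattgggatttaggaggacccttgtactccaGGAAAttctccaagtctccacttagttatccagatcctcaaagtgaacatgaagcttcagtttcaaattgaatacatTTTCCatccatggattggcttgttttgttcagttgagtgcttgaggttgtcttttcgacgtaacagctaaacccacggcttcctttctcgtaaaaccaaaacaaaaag
CD28: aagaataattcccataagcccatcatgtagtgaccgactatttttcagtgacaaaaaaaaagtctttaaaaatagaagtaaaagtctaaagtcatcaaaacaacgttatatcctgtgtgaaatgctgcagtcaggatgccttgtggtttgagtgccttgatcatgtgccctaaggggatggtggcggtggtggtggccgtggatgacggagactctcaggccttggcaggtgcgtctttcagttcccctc
ICOS: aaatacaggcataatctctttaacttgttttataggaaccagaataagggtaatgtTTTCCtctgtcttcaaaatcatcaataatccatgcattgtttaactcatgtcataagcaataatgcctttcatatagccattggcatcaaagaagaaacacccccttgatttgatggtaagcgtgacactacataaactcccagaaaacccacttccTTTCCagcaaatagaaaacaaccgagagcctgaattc

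The CTLA4 window held these letters at bases -185 to -181 and -108 to -104 from the start, the ICOS window at -194 to -190 and -37 to -33, and the CD28 window held none. Of 35116 RefSeq promoter windows of the same length, 55.6% held GGAAA on either strand, so the match is a common one. The table of promoters held entries for CTLA4, PDCD1 and CD274 among the human checkpoint genes and none for LAG3 and HAVCR2. The PDCD1 window is not shown, since the gene was not analysed in these cells.

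CTLA4 was at 9.78, 6.78 and 9.35 CPM in the DMSO libraries and at 21.3, 20.8 and 19.0 CPM in the BIX-01294 libraries. Every BIX-01294 library was above every DMSO library, as was the case for 24.1% of all human genes tested. Mean levels were 8.64 ± 1.62 CPM and 20.3 ± 1.23 CPM (SD, n = 3), a log2 fold change of 1.23 (SE 0.14, 95% interval of the fold 1.92 to 2.88, edgeR adjusted p = 1.3e-05). DESeq2 gave an adjusted p of 1.13e-13. An exact permutation test over the libraries, two-sided, gave p = 0.1, the smallest that 3 against 3 allow. CTLA4 was the only one of the 4 human genes called by the stricter rule, under which 11.7% of all genes tested were called (6.24% higher). It was called in every alternative fit, with log2 fold changes of 1.09 to 1.33 when single libraries were left out.

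The costimulatory neighbours of CTLA4 rose with it. CD28 was at 8.59 to 10.6 CPM with DMSO and 20.3 to 21.4 CPM with BIX-01294 (log2 fold change 1.12, SE 0.11, edgeR adjusted p = 5.92e-06). ICOS was at 58.1 to 59.4 CPM and 91.7 to 97.2 CPM (log2 fold change 0.68, SE 0.07, edgeR adjusted p = 3.73e-06). Both CTLA-4 ligands rose as well. CD80 was at 3.96 to 4.74 CPM with DMSO and 10.3 to 11.8 CPM with BIX-01294 (log2 fold change 1.39, SE 0.15, edgeR adjusted p = 8.88e-06). CD86 was at 79.9 to 89.9 CPM and 138.0 to 147.6 CPM (log2 fold change 0.77, SE 0.07, edgeR adjusted p = 1.84e-06). CD80 and CD86 are best known from antigen-presenting cells, and here their transcripts were counted in a cell line, in which macrophage and monocyte markers summed to 3.10 to 4.83 CPM with DMSO and 4.37 to 5.41 CPM with BIX-01294. Of the 10 markers on that list, 4 are listed in the human table and 2 passed the filter. The dendritic cell list, with 3 of 9 genes tested, summed to 143.5 to 157.3 CPM with DMSO and 272.8 to 299.7 CPM with BIX-01294. Its sum moved with CCR7, a chemokine receptor also made by lymphocytes (37.9 to 45.8 CPM and 185.2 to 208.6 CPM, log2 fold change 2.27, SE 0.08, edgeR adjusted p = 1.95e-09), while the other 2 genes, ITGAX (-0.36) and BATF3 (-0.22), were lower and not called. The B cell list summed to 40.3 to 46.4 CPM and 44.2 to 48.6 CPM, and MS4A1 was near 0. The looser rule called 7.57% of all human genes tested higher and 7.34% lower. Among the 4 tested on the B cell list, CD79A (1.02) and PAX5 (0.86) were higher and IGHM (-0.62) lower by that rule. The part of these genes in the CD80 and CD86 values was not tested.

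In mouse NK cells Ctla4 (GRCm38 chr1:60887000-60915832, plus strand) was counted at a low level. It had 61, 21 and 32 counts in WT replicates 1 to 3, which is 1.65, 0.814 and 0.860 CPM. KO replicates 1 to 3 had 68, 18 and 30 counts, or 1.85, 0.485 and 0.822 CPM. The groups overlapped throughout, and replicate 1 was the highest library of each. The log2 fold change was -0.08 (SE 0.54), with a 95% interval of -1.33 to 1.17 and an edgeR adjusted p of 0.925, which leaves room for a KO level of 0.397 to 2.25 times that of WT. The sign turned positive without WT replicate 1 (0.33), KO replicate 2 (0.27) or KO replicate 3 (0.07). Regulatory T cells, which hold CTLA-4 at rest, were represented by Foxp3 at 2.68 to 3.90 CPM in WT and 0.162 to 2.94 CPM in KO. The 6 genes of the regulatory T cell list, Ctla4 among them, summed to 79.3 to 93.3 CPM in WT and 119.8 to 128.2 CPM in KO, with 3 higher and 3 lower. Most of the sum was Tnfrsf18, at 47.1 to 65.3 CPM in WT and 88.0 to 92.7 CPM in KO (log2 fold change 0.76, SE 0.13, edgeR adjusted p = 0.0279). Foxp3 was among the lower ones (-1.58, SE 0.95, edgeR adjusted p = 0.265). The part of these genes in the Ctla4 values was not tested. Of the neighbours, Cd28 was at 24.1 to 33.7 CPM in WT and 38.6 to 51.9 CPM in KO (log2 fold change 0.66, SE 0.15, edgeR adjusted p = 0.0421) and Icos at 15.0 to 18.7 and 16.1 to 21.3 CPM (log2 fold change 0.18, SE 0.14, edgeR adjusted p = 0.398). The mouse ligands went the other way in value without a call, Cd80 with a log2 fold change of -0.75 (SE 0.37, edgeR adjusted p = 0.185) and Cd86 with -1.45 (SE 0.43, edgeR adjusted p = 0.0624).

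**Figure D2:**
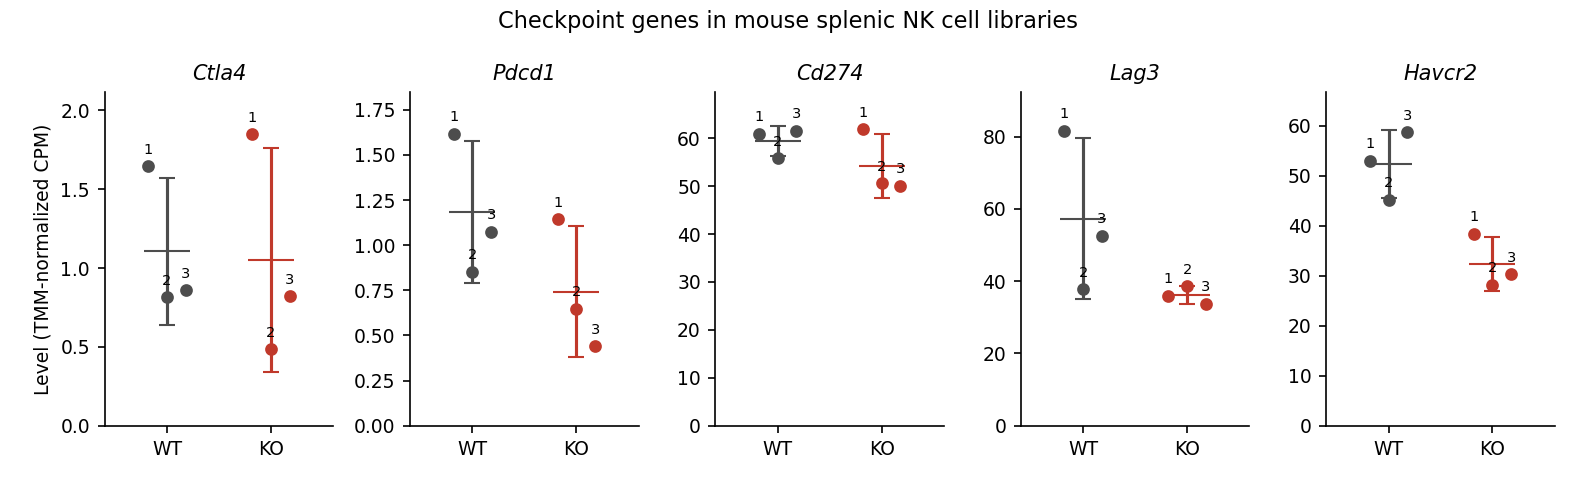
Level in CPM (vertical axis of each panel, from 0) of Ctla4, Pdcd1, Lag3, Havcr2 and Cd274 in each splenic NK library, by group (horizontal axis), with the group mean and SD drawn as a bar and numbers naming the replicates. Havcr2 is the gene whose groups stand apart, at 45.2 to 58.7 CPM in WT and 28.2 to 38.4 CPM in KO, and WT replicate 1 carries the highest Lag3 value (81.6 CPM).

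Havcr2 (GRCm38 chr11:46454935-46481255, plus strand) encodes TIM-3, which is carried by mature NK cells and also by macrophages and dendritic cells. It was at 53.0, 45.2 and 58.7 CPM in WT replicates 1 to 3 and at 38.4, 28.2 and 30.3 CPM in KO replicates 1 to 3. All KO libraries were below all WT libraries, as were 19.3% of all genes tested. Mean levels were 52.3 ± 6.78 CPM and 32.3 ± 5.39 CPM (SD, n = 3), a log2 fold change of -0.70 (SE 0.15, 95% interval -1.04 to -0.36, edgeR adjusted p = 0.0368). This missed the stricter rule, which called none of the 5 checkpoint genes and 0% of all genes tested. The looser rule called 1 of the 5, Havcr2, and 9.51% of all genes tested (6.69% lower). DESeq2 at the stricter rule also called only Havcr2 among the 5 (adjusted p = 0.000464) and 10.7% of all genes tested, and 2 of the 5, Havcr2 and Lag3, had an unadjusted edgeR p under 0.05, as did 35.8% of all genes tested. The exact permutation p, two-sided, was 0.1, the smallest possible. Without single libraries the log2 fold change stayed between -0.84 and -0.60, but the edgeR adjusted p was above 0.05 without WT replicate 1 (0.0917), WT replicate 3 (0.123), KO replicate 2 (0.147) or KO replicate 3 (0.145).

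Markers of macrophages and monocytes, B cells and neutrophils were lower in the KO libraries, as Havcr2 was. The looser rule called 6.69% of all genes tested lower in KO. The 12 macrophage and monocyte markers were all lower in KO, 7 of them called by the looser rule, at a median of -1.86 on the log2 scale and with sums of 2646 to 6995 CPM in WT and 1407 to 2576 CPM in KO. WT replicate 2 was the lowest WT library and KO replicate 1 the highest KO library for these markers, as they were for Havcr2. The same libraries held these places for the B cell, neutrophil, T cell and MHC class II sums. Among WT libraries, replicate 1 was highest for the macrophage and monocyte markers, while replicate 3 was highest for Havcr2. All 9 tested B cell markers were lower (sums of 469.3 to 1402 CPM in WT and 45.4 to 424.4 CPM in KO, 1 called), as were all 9 tested neutrophil markers (191.7 to 1579 CPM and 41.8 to 210.9 CPM, 2 called). Of 9 dendritic cell markers 8 were lower and 2 were called, although their sums overlapped at 1156 to 1453 CPM in WT and 1184 to 1414 CPM in KO. That sum was mostly Itgax, the 1 marker that was higher (log2 fold change 0.41, SE 0.21, edgeR adjusted p = 0.207). Unlike Havcr2, it was highest among WT in replicate 2 and lowest among KO in replicate 1. None of the macrophage, B cell and dendritic cell markers that were tested was at 0 across a group, and their part in the Havcr2 and Lag3 values was not tested. In such bulk libraries, fewer cells of a type and less RNA per cell cannot be told apart.

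**Figure D3:**
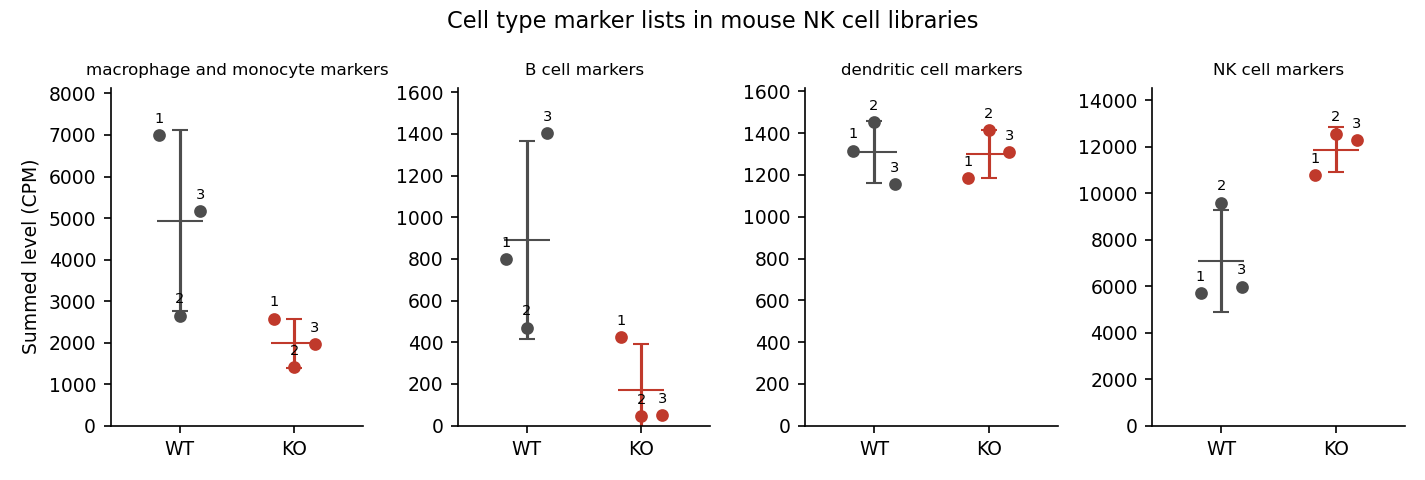
Summed CPM (vertical axis of each panel, from 0) of the macrophage and monocyte, B cell, dendritic cell and NK cell markers in each splenic NK library, by group (horizontal axis), with the group mean and SD drawn as a bar and numbers naming the replicates. Macrophage and monocyte markers run from 2646 to 6995 CPM in WT and from 1407 to 2576 CPM in KO, while NK cell markers run from 5694 to 9587 CPM in WT and from 10780 to 12550 CPM in KO.

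Among the TIM-3 ligands in mouse, Lgals9 (galectin-9) had a log2 fold change of 0.00 (SE 0.07, edgeR adjusted p = 0.987), at 166.6 to 179.5 CPM in WT and 167.7 to 175.5 CPM in KO. Ceacam1 had -0.34 (SE 0.10, edgeR adjusted p = 0.063) and Hmgb1 -0.08 (SE 0.08, edgeR adjusted p = 0.535). In NK92MI cells HAVCR2 (GRCh38 chr5:157085422-157142869, minus strand) was at 69.0, 65.8 and 62.1 CPM with DMSO and at 80.4, 70.7 and 79.9 CPM with BIX-01294. The groups did not overlap, as was the case for 47.9% of all human genes tested (24.1% higher). The log2 fold change was 0.23 (SE 0.08, 95% interval 0.07 to 0.39, edgeR adjusted p = 0.0287), below the fold that either rule asks for, and the adjusted p ran from 0.00376 to 0.132 when single libraries were left out. LGALS9, CEACAM1 and HMGB1 were not called, with log2 fold changes of -0.17, 0.05 and 0.18. An antisense long noncoding gene covers 2153 of the 5311 exonic bases of HAVCR2, and since the strand setting of the counting is not given in the sources used here, reads of the pair may not be told apart.

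Lag3 (GRCm38 chr6:124904361-124911705, minus strand) encodes a CD4-like receptor and lies between Cd4 and Ptms. It was at 81.6, 37.8 and 52.5 CPM in WT replicates 1 to 3 and at 35.9, 38.7 and 33.7 CPM in KO replicates 1 to 3. The WT libraries spread more widely than the KO libraries. KO replicates 1 and 3 lay below every WT library, while WT replicate 2 lay below KO replicate 2. Mean levels were 57.3 ± 22.3 CPM and 36.1 ± 2.46 CPM (SD, n = 3), a log2 fold change of -0.67 (SE 0.25, 95% interval -1.24 to -0.09, edgeR adjusted p = 0.102, DESeq2 adjusted p = 0.0281). The value was -0.32 without WT replicate 1 and -0.89 without WT replicate 2, with edgeR adjusted p-values of 0.238 and 0.0117. The neighbouring Cd4, a marker of helper T cells that some dendritic cells and macrophages also carry, had a log2 fold change of -1.21 (SE 0.34, edgeR adjusted p = 0.056). Siglech, a marker of plasmacytoid dendritic cells, which also carry LAG-3, fell from 152.9 to 326.6 CPM in WT to 56.7 to 103.3 CPM in KO (log2 fold change -1.30, SE 0.34, edgeR adjusted p = 0.0481), called by the looser rule. T cell markers summed to 168.2 to 274.4 CPM in WT and 111.2 to 235.5 CPM in KO. Of 9 tested, 6 were lower and 1 was called higher by the looser rule, as were 2.82% of all genes tested.

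LAG-3 binds MHC class II molecules, whose chains are encoded on the list used here by H2-Aa, H2-Ab1 and H2-Eb1, beside genes that load, accompany or switch on these molecules. All 7 genes of the list were lower in KO, the median being -0.97 on the log2 scale. The looser rule called 4 of them lower, and 6.69% of all genes tested. Of the 3 chain genes H2-Eb1 was called, at 1239 to 1517 CPM in WT and 537.8 to 1017 CPM in KO (log2 fold change -0.97, SE 0.25, edgeR adjusted p = 0.0481), and H2-Aa (-0.94) and H2-Ab1 (-0.92) were not. Cd74, the invariant chain of MHC class II, fell from 5299 to 6626 CPM in WT to 2364 to 4246 CPM in KO (log2 fold change -1.02, SE 0.25, edgeR adjusted p = 0.0452). Ciita, the transactivator of these genes, fell from 214.2 to 311.3 CPM to 99.2 to 168.3 CPM (log2 fold change -1.11, SE 0.23, edgeR adjusted p = 0.035). H2-DMa, a chain of the peptide-loading molecule, was the other one called (-0.92). These genes are strongly expressed by B cells, dendritic cells and macrophages, whose marker sums are given above. The part of such cells in the MHC class II values was not tested.

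In NK92MI cells LAG3 (GRCh38 chr12:6772512-6778455, plus strand) was at 23.6, 29.0 and 23.8 CPM with DMSO and at 23.3, 21.0 and 27.1 CPM with BIX-01294. The groups overlapped, with a log2 fold change of -0.10 (SE 0.12, 95% interval -0.35 to 0.15, edgeR adjusted p = 0.537). The interval leaves room for a fall to 0.785 or a rise to 1.11 of the DMSO level. The neighbouring PTMS rose by the stricter rule (log2 fold change 0.51, SE 0.12, edgeR adjusted p = 0.00394), and CD4 on the other side did not pass the filter. Of 6 genes of the MHC class II list tested, 3 were called higher by the looser rule, as were 7.57% of all human genes tested. These were HLA-DRB1, from 1.57 to 2.01 CPM with DMSO to 7.55 to 9.80 CPM with BIX-01294, HLA-DMA (log2 fold change 1.09) and CD74 (0.59). HLA-DRA did not pass the filter. CIITA had a log2 fold change of -0.07 (SE 0.07, edgeR adjusted p = 0.442). Counts of HLA-DRB1 may be shared with near-identical copies of the family.

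Pdcd1 (GRCm38 chr1:94038305-94052553, minus strand) was as scarce as Ctla4 in mouse NK cells. It had 60, 22 and 40 counts in WT replicates 1 to 3 (1.62, 0.853 and 1.07 CPM) and 42, 24 and 16 counts in KO replicates 1 to 3 (1.14, 0.646 and 0.439 CPM). The groups overlapped. The log2 fold change was -0.68 (SE 0.44) with a 95% interval of -1.71 to 0.35 and an edgeR adjusted p of 0.306.

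Cd274 (GRCm38 chr19:29367455-29388095, plus strand) encodes the PD-1 ligand PD-L1 and had the smallest SE of the 5 in mouse. It was at 61.0, 55.9 and 61.5 CPM in WT replicates 1 to 3 and at 61.9, 50.6 and 50.1 CPM in KO replicates 1 to 3. An antisense gene covers 798 of its 3622 exonic bases. The groups overlapped through KO replicate 1, with a log2 fold change of -0.13 (SE 0.11, 95% interval -0.38 to 0.11, edgeR adjusted p = 0.396). Pdcd1lg2, which encodes PD-L2 and is the next gene on the chromosome, had 0.07 (SE 0.12, edgeR adjusted p = 0.707).

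In NK92MI cells CD274 (GRCh38 chr9:5450503-5470566, plus strand) was at 4.13, 4.68 and 3.14 CPM with DMSO and at 5.60, 7.05 and 5.25 CPM with BIX-01294. The lowest BIX-01294 library was above the highest DMSO library, as for 24.1% of all human genes tested. Mean levels were 3.98 ± 0.781 CPM and 5.97 ± 0.955 CPM (SD, n = 3), a log2 fold change of 0.58 (SE 0.20, 95% interval 0.16 to 1.002, edgeR adjusted p = 0.0306). The looser rule called 2 of the 4 human genes, CTLA4 and CD274, and 14.9% of all genes tested (7.57% higher). The edgeR adjusted p was above 0.05 without DMSO column CON-1 (0.0618), DMSO column CON-3 (0.129) or BIX replicate 2 (0.092). An antisense long noncoding gene covers 3606 of the 4108 exonic bases of CD274, the largest such overlap among the human checkpoint genes, so the CD274 values carry the same uncertainty of strand as those of HAVCR2. PDCD1LG2 was at 0.296 to 0.640 CPM with DMSO and 0.294 to 0.649 CPM with BIX-01294 and was not called.

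The 250 bases before the RefSeq start of CD274 (GRCh38.p14 chr9:5450292-5450541, plus strand) are shown because PD-L1 is known as an interferon-induced gene. Capitals mark 2 overlapping matches, on the minus strand, to GAAA followed after any 2 bases by a second GAAA, the letters of an interferon-stimulated response element (ISRE), and 1 match to TTCNNNGAA, the letters of a gamma-activated site (GAS), named for the response to interferon gamma.

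CD274: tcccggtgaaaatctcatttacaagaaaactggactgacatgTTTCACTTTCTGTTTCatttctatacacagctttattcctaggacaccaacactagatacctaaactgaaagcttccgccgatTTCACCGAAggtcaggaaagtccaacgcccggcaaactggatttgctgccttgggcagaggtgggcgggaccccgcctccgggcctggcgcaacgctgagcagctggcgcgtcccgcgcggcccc

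The ISRE letters stood at bases -208 to -199 and -202 to -193 from the start and the GAS letters at -125 to -117. ISRE letters were in 3.02% and GAS letters in 6.57% of the 35116 promoter windows, both strands searched. The windows of CTLA4 and PDCD1 held neither. Letters for AP-1 (TGANTCA, in 6.57% of windows) and for NR4A factors (AAAGGTCA, in 1.05%) were in none of the CTLA4, PDCD1 and CD274 windows. IFNGR1, the ligand-binding chain of the interferon gamma receptor, rose in NK92MI cells from 56.7 to 60.9 CPM with DMSO to 81.2 to 89.9 CPM with BIX-01294 (log2 fold change 0.55, SE 0.07, edgeR adjusted p = 4.8e-05).

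**Figure D4:**
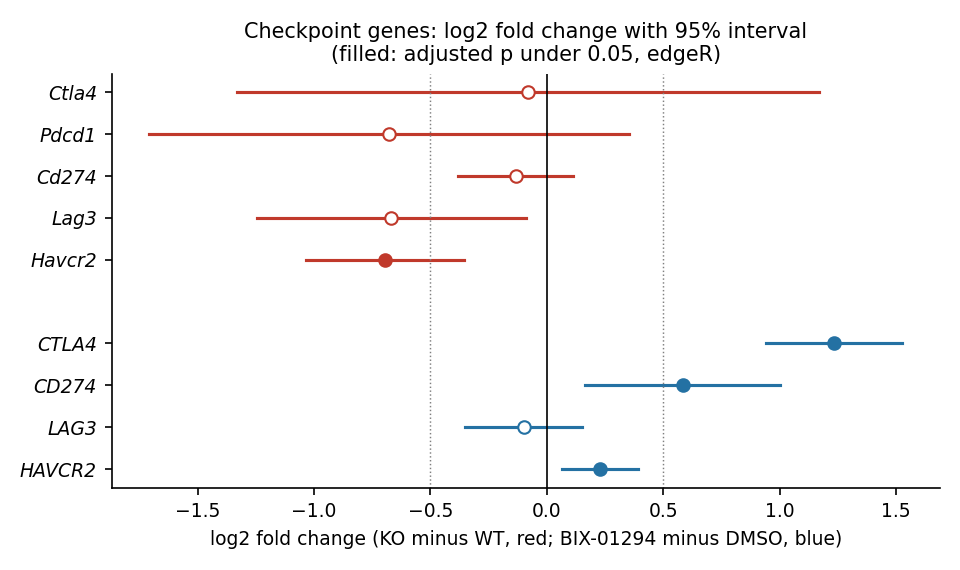
Log2 fold change with its 95% interval (horizontal axis) of each checkpoint gene in KO against WT NK cells and in BIX-01294 against DMSO NK92MI cells, with a line at 0, dotted lines at an absolute value of 0.5 and filled points for an edgeR adjusted p under 0.05. The interval of CTLA4 (0.94 to 1.53) lies above 0, that of Havcr2 (-1.04 to -0.36) below it, and that of Ctla4 (-1.33 to 1.17) is the widest.

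All 5 mouse genes had a negative log2 fold change, with a median of -0.67 beside 0.01 over all genes tested, and 3 of the 4 human genes a positive one, with a median of 0.41 beside -0.01. Havcr2 was lower in KO and HAVCR2 was higher with BIX-01294, in systems that differ in species, cell source and kind of perturbation, and the difference between them was not tested. The 5 genes together summed to 198.8, 140.5 and 174.7 CPM in WT replicates 1 to 3 and to 139.2, 118.6 and 115.4 CPM in KO replicates 1 to 3. The 4 human genes summed to 98.5 to 106.6 CPM with DMSO and 119.5 to 131.2 CPM with BIX-01294.

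Per kilobase of exons, levels were set beside each other between genes (CPM divided by the exon length in kilobases, from GENCODE). The length merges the exons of all annotated transcripts of a gene, 12 for HAVCR2, 7 for CTLA4 and 4 for LAG3. Which of them these cells use was not tested, and the orders below depend on this length. In WT cells Lag3 had 27.2 ± 10.6, Havcr2 19.2 ± 2.49 and Cd274 16.4 ± 0.864 (SD, n = 3), with ranges that overlapped between neighbours in this order, and Pdcd1 (0.613 ± 0.204) and Ctla4 (0.475 ± 0.201) stood far below them and overlapped each other. In KO cells the order was Lag3 (17.1 ± 1.17), Cd274 (15.0 ± 1.83), Havcr2 (11.9 ± 1.98), Ctla4 (0.452 ± 0.305) and Pdcd1 (0.385 ± 0.187), and only the ranges of Havcr2 and Ctla4 did not overlap among neighbours. In DMSO-treated NK92MI cells the order was HAVCR2 (12.4 ± 0.651), LAG3 (8.34 ± 0.995), CTLA4 (3.71 ± 0.696) and CD274 (0.970 ± 0.190), with no overlap between neighbours. With BIX-01294, CTLA4 (8.73 ± 0.529) and LAG3 (7.78 ± 1.01) overlapped, below HAVCR2 (14.5 ± 1.03) and above CD274 (1.45 ± 0.232).

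The pathway around these receptors was described with lists of genes, by the looser rule. That rule called 2.82% of all genes tested higher and 6.69% lower in KO NK cells, and 7.57% higher and 7.34% lower in NK92MI cells. Of 11 signalling partners, 2 were called higher in KO NK cells, among them the kinase Lck (log2 fold change 0.73, SE 0.19, edgeR adjusted p = 0.0484), and none lower. The phosphatase gene Ptpn6 was lower in value without a call (-0.59, SE 0.16, edgeR adjusted p = 0.0527). DESeq2 at the stricter rule called 2 of this list higher and 1, Ptpn6, lower, with 10.7% of all genes tested called. In NK92MI cells 2 of 11 fell, the kinases FYN (-0.66, edgeR adjusted p = 4.37e-06) and CSK (-0.55, edgeR adjusted p = 6.9e-05), and none rose. PTPN11, which encodes the phosphatase SHP-2, had -0.35 in NK92MI cells (SE 0.07, edgeR adjusted p = 0.00128), below the fold asked for, and Ptpn11 0.07 in mouse (SE 0.11, edgeR adjusted p = 0.667). None of 14 genes for trafficking, shedding and turnover of the receptors was called in either species, with CMTM6, which keeps PD-L1 at the cell surface, nearest to it at 0.49 in NK92MI cells (SE 0.07, edgeR adjusted p = 0.000121). Of the ligands and binding partners, 0 of 8 were called in mouse (1 lower with DESeq2 at the stricter rule), and 2 of 7 rose in NK92MI cells, CD80 and CD86.

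By the same rule, with 2.82% of all genes called higher and 6.69% lower, 4 of 24 transcriptional and cytokine regulators tested in mouse were called higher and none lower. These were Tbx21 (0.90), the T-bet gene of NK cell maturation, the interferon-regulated Irf1 (0.53), Nfil3 (0.65) and Nr4a2 (0.59), with edgeR adjusted p-values of 0.0324 to 0.0473. Irf4 (-1.06, edgeR adjusted p = 0.0647) and Ifngr2 (-0.91, edgeR adjusted p = 0.076) were lower in value without a call. DESeq2 at the stricter rule called 3 of the list higher and these 2 lower, with 10.7% of all genes tested called. In NK92MI cells, where 7.57% of all genes were called higher and 7.34% lower, 6 of 22 rose and 1 fell. NR4A1, an activation-induced nuclear receptor, rose from 0.524 to 1.05 CPM to 4.02 to 4.23 CPM (log2 fold change 2.35, SE 0.27, edgeR adjusted p = 2.2e-05), and NR4A3 from 7.60 to 8.46 CPM to 16.7 to 22.7 CPM (1.31, SE 0.13, edgeR adjusted p = 6.26e-06). MAF (1.48), IRF4 (0.51) and IFNGR1 were also among those that rose, and TOX2 (-0.54) fell. Among other inhibitory receptors, 4 of 10 rose in KO NK cells, Klrg1 (0.95), Cd160 (1.07), Cd96 (0.97) and Klrc1 (0.83), and Lair1 (-0.60) fell. In NK92MI cells 1 of 9 fell, VSIR (-0.65, edgeR adjusted p = 0.00606), and none rose. NK cell markers as a whole were higher in KO, by the sums given above, and their part in the values of these receptors was not tested.

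**Figure D5:**
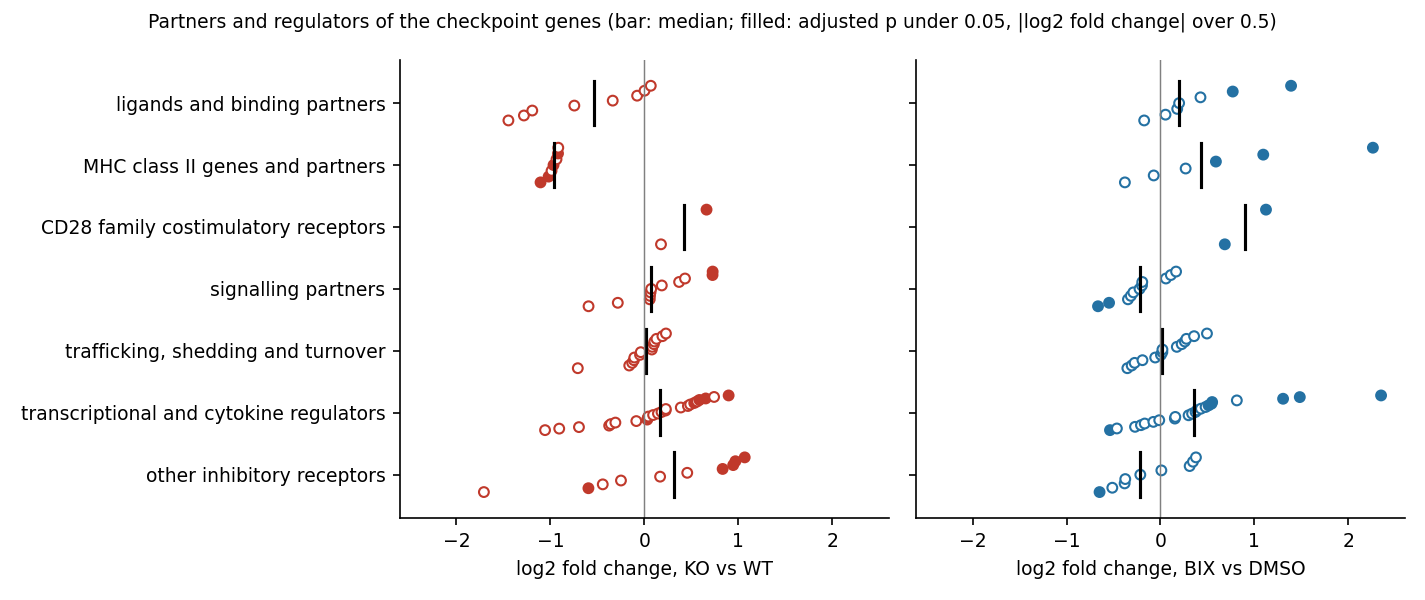
Log2 fold change (horizontal axis) of every tested gene of each pathway list (rows), in KO against WT NK cells and in BIX-01294 against DMSO NK92MI cells, with genes called by the looser rule as filled points and the median of a list as a bar. MHC class II genes and their partners lie below 0 in mouse, with a median of -0.97, and both CD28 family genes lie above 0 in both comparisons.

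The genes whose log2 CPM followed each checkpoint gene most closely over the 6 libraries of a species were named from those with a mean of at least 5 CPM, about 10253 in mouse and 9464 in human. With so many genes and 6 libraries, correlations near 1 are common and are given as a description. Havcr2 was followed by Hk2 (r = 0.998), Rgs10 and Tbc1d9, Lag3 by Myo7a (0.996), Ell2 and Cpped1, Cd274 by Adap1 (0.996), Tceb1 and Cd5, Pdcd1 by Cyp51 (0.997), Insig1 and Sgcb, and Ctla4 by Mthfsl (0.996), Nhp2l1 and Romo1. In NK92MI cells CTLA4 was followed by POU2F2, CDK19 and VTA1 (each r = 0.999), HAVCR2 by ASCC1 (0.989), DUSP3 and CREG1, LAG3 by ANXA2R (0.988), SHISA5 and MRPL37, and CD274 by POFUT1 (0.997), PFKFB2 and TAPBP. In such a correlation the points share the library, its depth and its make-up of cells.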

How the data were processed

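RNA-seq counts of 12 libraries were analysed. Per the study's methods and the submitters' processing notes, the authors trimmed reads with fastp 0.23.4, aligned them with STAR 2.7.11b to GRCm38/mm10 or GRCh38/hg38, allowing 2 mismatches, and counted them with HTSeq 2.0.3, and the deposited values are raw counts per gene symbol. The annotation release and the strand setting are not given in the sources used here.

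Samples were grouped by title, since the KO titles name EHMT2 while their genotype field reads Ezh2-KO. Human control columns could not be matched to single DMSO samples and entered as a group. The checkpoint genes and all lists were chosen with earlier results of these data known. The genes named are the checkpoint genes, their ligands, receptors and neighbours, the called genes of the pathway lists and the 3 genes most like each checkpoint gene. Others (Foxp3, Tnfrsf18, Siglech, Ptpn6, Irf4 and Ifngr2 in mouse, Ptpn11 and its human form, CMTM6, CIITA, CCR7 and the other dendritic and B cell markers) were named after their values were seen. Some called list genes are not reported here by name.

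Each species was fitted separately in R 4.3.3 with edgeR 4.0.16 (TMM, filterByExpr, glmQLFit and glmQLFTest). DESeq2 1.42.0, limma-voom (limma 3.58.1), other scalings and filters, a replicate block and each library left out were alternatives. The scripts were tested on simulated data. Positions and exon lengths are from GENCODE M21 and v44, which may not be the releases the authors counted with, and promoters are from RefSeq. Motifs were searched on both strands in the 250 bases before each start. Ctla4 and Pdcd1 had the lowest counts of the checkpoint genes, 16 to 68 a library. Replicates of a group differed by more than sampling noise in every pair, so none was counted as a duplicate.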

Additional observations from a re-analysis of the deposited data

How the results depend on the processing

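In BIX-01294 against DMSO, CTLA4 was called in all alternatives. The number of human checkpoint genes called was 1 throughout except under the looser rule, where it was 2, with CD274 at a log2 fold change of 0.58. Of all human genes tested, the stricter rule called 11.7% in the main fit and the looser rule 14.9%. LAG3 ran from -0.20 to 0.0014 with single libraries left out, the positive value without DMSO column CON-2. In KO against WT, 0 of 5 were called, and 1 with DESeq2, with the replicate block, with the looser rule and without WT replicate 2 (0 to 1 over single libraries left out). Of all genes tested, the main fit called 0% and these settings 10.7%, 6.21%, 9.51% and 8.67%, in that order. In each of these the gene was Havcr2, at -0.70 with DESeq2, with the block and with the looser rule, and at -0.84 to -0.60 with single libraries left out. Ctla4 ran from -0.77 to 0.33 there.

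Scaling to 12 pan-NK genes moved the median of all genes from 0.01 to -0.74 and called 2, Havcr2 (-1.46) and Lag3 (-1.49). It called 22.9% of all genes tested, 3003 of 3024 of them lower. Relative to that median Havcr2 was at -0.72 and Lag3 at -0.75, against -0.71 and -0.68 with TMM.

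Same-numbered WT and KO libraries had correlations of their deviations of 0.281, 0.352 and -0.188, and not every library correlated best with its own number. Whether they form pairs was not settled by these values. The block raised the count of called genes from 0 to 819. That count was 34 without a filter, 3 with limma-voom, 1499 with DESeq2, 3024 with the pan-NK scaling and 1163 without WT replicate 2. The cause of these differences was not tested. No paired analysis was possible in NK92MI cells because the control columns carry no DMSO replicate numbers.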
